A study of Mus musculus with 12 samples.

Results

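The ATF4 amino acid response is a set of genes that cells use to make, import and recycle amino acids, and it is described here with its relative Atf5 in alveolar macrophages, the phagocytes of the airspaces. The 39 genes are the rows of the deposited expression table, of 55291 in all, whose symbol stands in a list of known ATF4 targets and regulators. The list was chosen with earlier ozone results of these mice in view: Atf5 was included because of its large fall after ozone, so its values are given as a description and without a test. RNA came from flow-sorted alveolar macrophages of female C57BL6/NJ mice aged 8 to 11 weeks, with 6 mice in filtered air and 6 in ozone at 0.8 ppm. Both groups went through 4 h of exposure on each of 4 days, and lungs were taken 3 days after the last. Cells were sorted in 2 batches with 3 mice of each group in each. All 12 markers of alveolar macrophages that were looked up were detected. Of their differences after ozone 7 were below 0 and 5 above, with a median of -0.036. The differences ran from -0.35 to 0.58, and 5 had an unadjusted p under 0.05 in limma. By limma 3 were called, Krt79 lower by 0.35 (adjusted p = 0.0177), Chil3 higher by 0.25 (adjusted p = 0.0320) and Car4 higher by 0.32 (adjusted p = 0.0461). The series title links the macrophage transcriptome to tolerance of the lung to ozone.

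Phosphorylation of the initiation factor eIF2 by stress kinases, among them GCN2 (Eif2ak4), which senses uncharged tRNA, and PERK (Eif2ak3), which senses unfolded protein in the endoplasmic reticulum, lowers general protein synthesis while raising translation of ATF4. ATF4 then binds, usually with a C/EBP partner, to short elements in its target genes. ATF4 and ATF5 are both controlled to a large degree at translation, so their mRNA does not give the amount of protein. Macrophages draw on this programme when amino acids run short or the endoplasmic reticulum or mitochondria are strained.

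The deposited values are on a variance-stabilized log2 scale, and in every gene the filtered-air mean is 0. The level of a gene was not kept, so members cannot be ranked by abundance. A difference on this scale is smaller than the true log2 change, and more so for genes with few reads, so sizes of different genes are not on 1 common fold scale. All 39 members passed the filter on low values, 37 with every mouse above the value that mice without a read share; Cbs was above it in 8 mice and Cth in 10. In bulk RNA, a change in every cell cannot be told apart from a change in the share of cells that express a gene.

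The sequences recognised by ATF4 with a C/EBP partner are known as C/EBP-ATF response elements. The letters TGATGNAAN were searched on both strands in the RefSeq promoter windows of build GRCm38.p6, each holding 250 bases before and 50 after a start site. Windows were found for 34 of the 39 members, and 10 of these 34 held the motif, against 4.50% of all 27025 genes with a window and 2.86% of the 12675 tested genes with one. The list was made up of known ATF4 targets and regulators, so nothing is drawn from the distance to these shares. The sites are shown because they mark which members carry the element close to their start, whether or not the gene moved after ozone. Each is printed 5′ to 3′ on the strand that reads TGATG, with the motif in capitals.
Asns, chr6:7693214-7693242, minus strand: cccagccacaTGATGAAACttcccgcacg
Trib3, chr2:152344029-152344057, plus strand: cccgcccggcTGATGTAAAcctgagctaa
Nupr1, chr7:126625563-126625591, plus strand: aagccctgtcTGATGCAATctggcccttt
Chac1, chr2:119351038-119351066, minus strand: ctggcaggagTGATGCAACggcagggaag
Slc7a11, chr3:50443661-50443689, minus strand: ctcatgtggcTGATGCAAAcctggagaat
Slc7a11, chr3:50443643-50443671, plus strand: ggctgcatgaTGATGCAAAttctccaggt
Slc1a4, chr11:20332700-20332728, plus strand: aggctggagaTGATGCAACgcaggaggca
Pycr1, chr11:120643833-120643861, minus strand: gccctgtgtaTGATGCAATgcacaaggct
Pck2, chr14:55540152-55540180, minus strand: tgtaagatacTGATGTAACtttgaaggct
Vldlr, chr19:27216809-27216837, minus strand: ctaggagcgcTGATGCAACtattgctgct
Got1, chr19:43524690-43524718, plus strand: gaggcttgtaTGATGCAACcaatgcaatg

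The site of Asns began 23 bases before the RefSeq start and that of Nupr1 111 bases before it, while the site of Trib3 lay just after the RefSeq start and just before the GENCODE M21 start. Slc7a11 held 2 sites, on opposite strands. Neither of the 2 windows of Atf5 held these letters. The 250 bases before its outer start, at chr7:44816659-44816908 on the minus strand, are printed because Atf5 differed most of all members.
Atf5: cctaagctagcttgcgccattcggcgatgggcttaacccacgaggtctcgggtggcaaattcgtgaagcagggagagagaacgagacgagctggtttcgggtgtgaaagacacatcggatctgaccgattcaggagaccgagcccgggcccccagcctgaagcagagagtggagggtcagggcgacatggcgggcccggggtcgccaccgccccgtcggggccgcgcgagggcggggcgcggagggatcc

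After ozone, the transcription factors Atf4, Atf5 and Ddit3, the enzyme Asns, the pseudokinase Trib3 and the transporters Slc7a1 and Slc7a5 were lower in every ozone mouse than in every filtered-air mouse. Leaving Atf5 aside, 6 of the other 38 members had an adjusted p under 0.05 in limma, adjusted over all 19633 genes tested, all 6 lower, and 0 members were called higher. Over all genes tested, 4.25% were called, with 1.84% called lower and 2.41% called higher. Without Atf5, the groups did not overlap in 7 members, all lower after ozone, and 1.58% of all genes tested were lower without overlap. At an unadjusted p under 0.05 stood 12 of the 38, all lower, and 16.7% of all genes. The median difference of the 38 was -0.032, and that of all genes tested was -0.0033. Since the members were picked with these results known, the counts describe the list and nothing is drawn from the distance to the background.

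**Figure D1:**
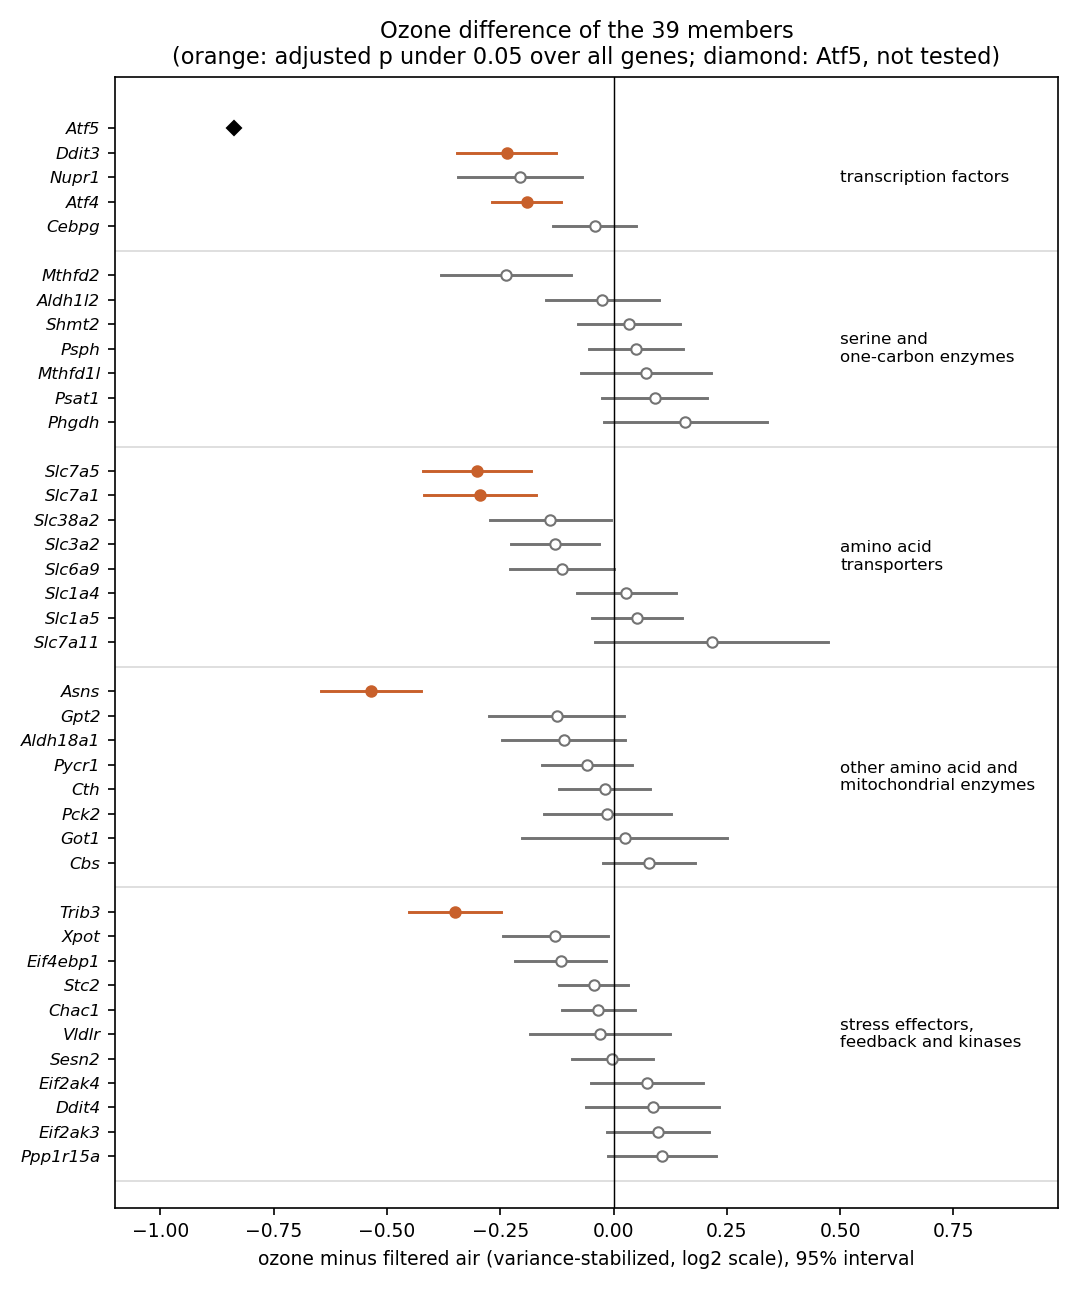
Ozone minus filtered air of the 39 members by class, as points with 95% intervals from limma on the variance-stabilized log2 scale; orange marks a limma adjusted p under 0.05, and the diamond is Atf5, shown without a test. The 6 orange points lie between -0.54 and -0.19, and the members with a point above 0 have intervals that reach 0.

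Among the transcription factors, Atf5, a relative of ATF4 that is linked to the stress response of mitochondria, differed most. In filtered air its values ran from -0.30 through a median of 0.032 to 0.17, and after ozone from -1.04 through -0.85 to -0.66. Every ozone mouse lay below every filtered-air mouse, with a gap of 0.36 between the groups. The difference was -0.84 (SE 0.081), the fifth largest fall of all genes tested; read as a plain log2 ratio it puts the ozone mice at 56.0% of the filtered-air level. It was -0.81 in the first sort batch and -0.86 in the other. The gene lies at chr7:44812256-44816658 on the minus strand, and exons of Nup62 and Il4i1 overlap its exons from the other strand. Those neighbours differed by 0.033 (limma adjusted p = 0.848) and -0.045 (adjusted p = 0.761).

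Atf4 itself, the factor after which the response is named, lies at chr15:80255184-80257541 on the plus strand. Its filtered-air values were tightly grouped, from -0.038 through -0.0024 to 0.047, and its ozone values ran from -0.27 through -0.19 to -0.13. The groups were separate although the difference was small, -0.19 (SE 0.035, limma adjusted p = 0.00728), which is 87.6% of the filtered-air level if read as a log2 ratio. Ddit3, which encodes the pro-apoptotic factor CHOP and is itself induced by ATF4, ran from -0.14 through 0.0035 to 0.12 in filtered air and from -0.33 through -0.24 to -0.15 after ozone. Its groups were separated by only 0.015, and the difference was -0.24 (SE 0.051, limma adjusted p = 0.0172). Exons of Mars1, the methionyl-tRNA synthetase gene, and of the non-coding Gm4189 overlap those of Ddit3 on the other strand. Mars1 differed by -0.083 (limma adjusted p = 0.267) and Gm4189 by 0.027 (limma adjusted p = 0.865). The library kit was stranded, but whether the counting used the strand is not given in the sources used here. Reads of Atf5 and Ddit3 thus cannot be fully told apart from those of these neighbours. Exons of Cebpg, Psph, Shmt2, Aldh1l2, Slc6a9, Pck2, Ppp1r15a and Eif2ak3 also overlap those of other genes. Of these neighbours Gm44836 lies on the same strand as Cebpg.

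Nupr1, a small stress-induced chromatin protein, and Cebpg, a dimer partner of ATF4, were not called. Nupr1 ran from -0.24 to 0.14 in filtered air and from -0.34 to -0.097 after ozone. Filtered-air mouse 4 was the lowest of its group at -0.24, and only 1 ozone mouse lay below it. The difference was -0.21 (SE 0.064, limma adjusted p = 0.0915), and without that mouse it was -0.26 (limma adjusted p = 0.0128). With RNA integrity as a covariate the difference was -0.23 (limma adjusted p = 0.0106). With same-numbered mice as blocks in place of the batch term, the limma adjusted p was 0.0430. It was 0.349 after quantile normalization and 0.112 with a variance trend, and with other mice left out it reached up to 0.192. Cebpg differed by -0.042, with a 95% interval from -0.13 to 0.050. Of the 4 factors other than Atf5, 2 were called lower and 2 were not called, with a median difference of -0.20.

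**Figure D2:**
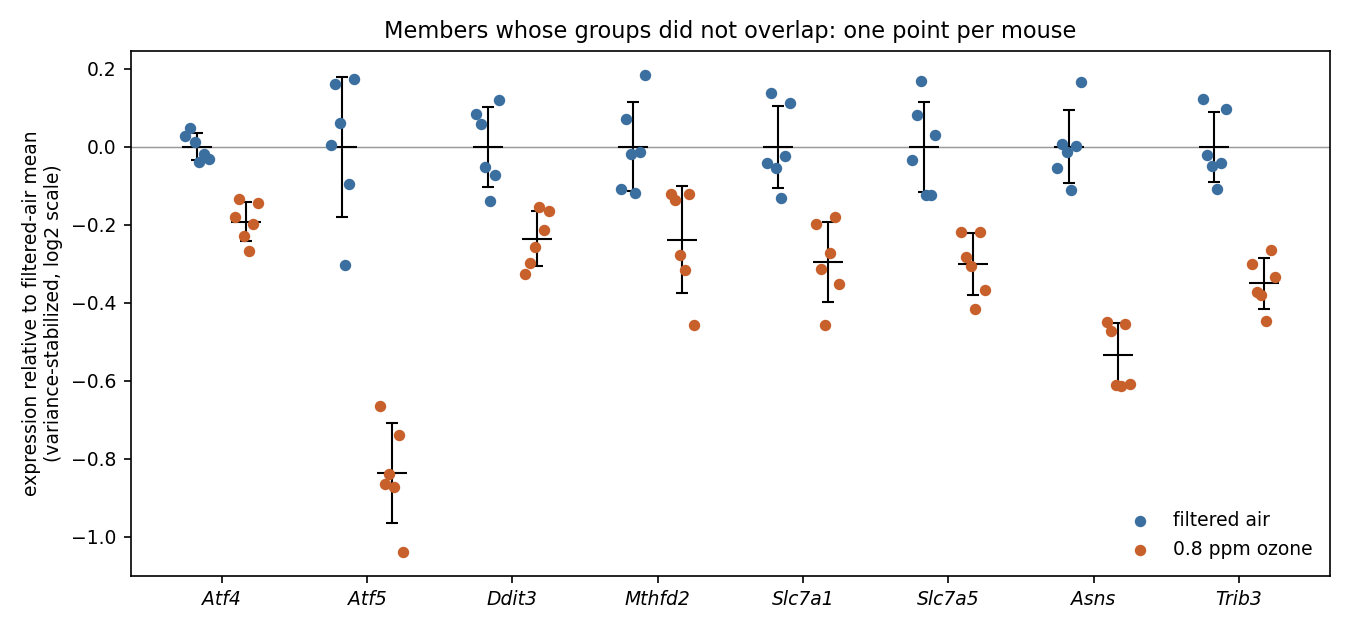
Expression of the 8 members whose groups did not overlap, relative to the filtered-air mean on the variance-stabilized log2 scale, with 1 point per mouse and the mean and SD of each group of 6 in black. Ozone mice lie below all filtered-air mice in each gene, by a wide gap in Atf5 and Asns and by a narrow one in Ddit3 and Mthfd2.

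Asns, which makes asparagine from aspartate and glutamine, had the largest difference among the metabolic members. Its values ran from -0.11 through -0.0055 to 0.17 in filtered air and from -0.61 through -0.54 to -0.45 after ozone. The lowest filtered-air mouse stood 0.34 above the highest ozone mouse. The difference was -0.54 (SE 0.051, limma adjusted p = 0.00011), or 69.0% of the filtered-air level if read as a log2 ratio, and it had the 6th smallest p-value of all genes tested. The gene lies at chr6:7675169-7693254 on the minus strand, so in GENCODE M21 the site printed above falls in its first exon.

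The other enzymes of amino acid and mitochondrial metabolism were not called. Of the 8 in this class 1 was called lower, and 6 had differences below 0, Asns included. Gpt2, an alanine aminotransferase, differed by -0.13, with a 95% interval from -0.27 to 0.024. Aldh18a1 and Pycr1, which act in proline synthesis, differed by -0.11 and -0.059. Pck2, the mitochondrial phosphoenolpyruvate carboxykinase, and Got1, an aspartate aminotransferase, differed by -0.014 and 0.024. Cth and Cbs, the transsulfuration enzymes that lead from homocysteine to cysteine, differed by -0.019 and 0.078. The intervals of all 7 held 0, and they reached from -0.27 at the lower end of Gpt2 to 0.25 at the upper end of Got1.

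The enzymes of serine synthesis and mitochondrial folate metabolism had differences on both sides of 0. None of the 7 was called by limma, 1 had an unadjusted p under 0.05, and the median difference was 0.050. Phgdh, Psat1 and Psph, the 3 steps of serine synthesis, had differences of 0.16, 0.090 and 0.050. The 95% interval of Phgdh ran from -0.022 to 0.34, that of Psat1 from -0.025 to 0.21 and that of Psph from -0.054 to 0.15. All 3 intervals hold 0 and lie mostly above it. Shmt2, which moves a carbon unit from serine to folate in mitochondria, differed by 0.033, Mthfd1l by 0.072 and Aldh1l2 by -0.025.

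Mthfd2, the mitochondrial enzyme of the same folate pathway that follows Shmt2, stood apart within this class. It ran from -0.12 through -0.017 to 0.19 in filtered air and from -0.46 through -0.21 to -0.12 after ozone. The groups did not overlap, but by a margin of 0.0036 only. Its difference of -0.24 (SE 0.067) missed the threshold with a limma adjusted p of 0.0643. With RNA integrity as a covariate the limma adjusted p was 0.0411, and without the batch term 0.0427. It was 0.210 after quantile normalization and 0.0854 with a variance trend, and it reached up to 0.134 with a mouse left out.

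Of the 8 amino acid transporters, 2 were called lower and 6 were not called. The differences of 5 were below 0, and the median was -0.12. Slc7a1, which carries cationic amino acids such as arginine, ran from -0.13 through -0.032 to 0.14 in filtered air and from -0.46 through -0.29 to -0.18 after ozone, a difference of -0.30 (SE 0.058, limma adjusted p = 0.0100). Slc7a5, the light chain of the LAT1 exchanger for leucine and other large neutral amino acids, ran from -0.12 through -0.0012 to 0.17 and from -0.42 through -0.29 to -0.22, a difference of -0.30 (SE 0.056, limma adjusted p = 0.00751). In both genes all 6 ozone mice were below all 6 filtered-air mice. Slc3a2, the heavy chain that LAT1 shares with other exchangers, differed by -0.13 (limma adjusted p = 0.140), with 2 ozone mice below the filtered-air range. Slc38a2, a sodium-coupled carrier of small neutral amino acids, and Slc6a9, a glycine carrier, differed by -0.14 and -0.11. Slc1a4 and Slc1a5, which exchange neutral amino acids, differed by 0.028 and 0.052.

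Slc7a11, the cystine carrier of system xc-, pointed the other way, with the highest difference of the 39 at 0.22 (SE 0.12, limma adjusted p = 0.406). Filtered-air mice ran from -0.26 through -0.037 to 0.53 and ozone mice from -0.0099 through 0.20 to 0.47. The value of 0.53 belonged to filtered-air mouse 4, and the other 5 mice of that group were at or below 0.036. Without that mouse the difference was 0.33 and Slc7a11 was called higher (limma adjusted p = 0.0384). Its promoter holds the motif on both strands, as printed above.

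Among stress effectors, feedback genes and kinases, 1 of 11 was called. Trib3, a pseudokinase that ATF4 and CHOP induce and that dampens both, ran from -0.11 through -0.031 to 0.12 in filtered air and from -0.45 through -0.35 to -0.26 after ozone. The groups were separated by 0.16, and the difference was -0.35 (SE 0.048, limma adjusted p = 0.00142). Chac1, which degrades glutathione, and Sesn2, which signals low leucine to mTORC1, differed by -0.034 and -0.0025. Ddit4, another inhibitor of mTORC1, differed by 0.086, and Eif4ebp1, a repressor of cap-dependent translation, by -0.12 (limma adjusted p = 0.215).

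The remaining members of this class were not called either. Xpot, which exports tRNA from the nucleus, differed by -0.13 (limma adjusted p = 0.237), Stc2, a secreted glycoprotein, by -0.044 and Vldlr, a lipoprotein receptor, by -0.030. The kinases upstream of ATF4, Eif2ak3 and Eif2ak4, differed by 0.098 and 0.073, and Ppp1r15a, the GADD34 subunit that reverses eIF2 phosphorylation, by 0.11. The 95% intervals of these 3 ran from -0.014 to 0.21, from -0.050 to 0.20 and from -0.013 to 0.23. All 3 intervals hold 0.

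**Figure D3:**
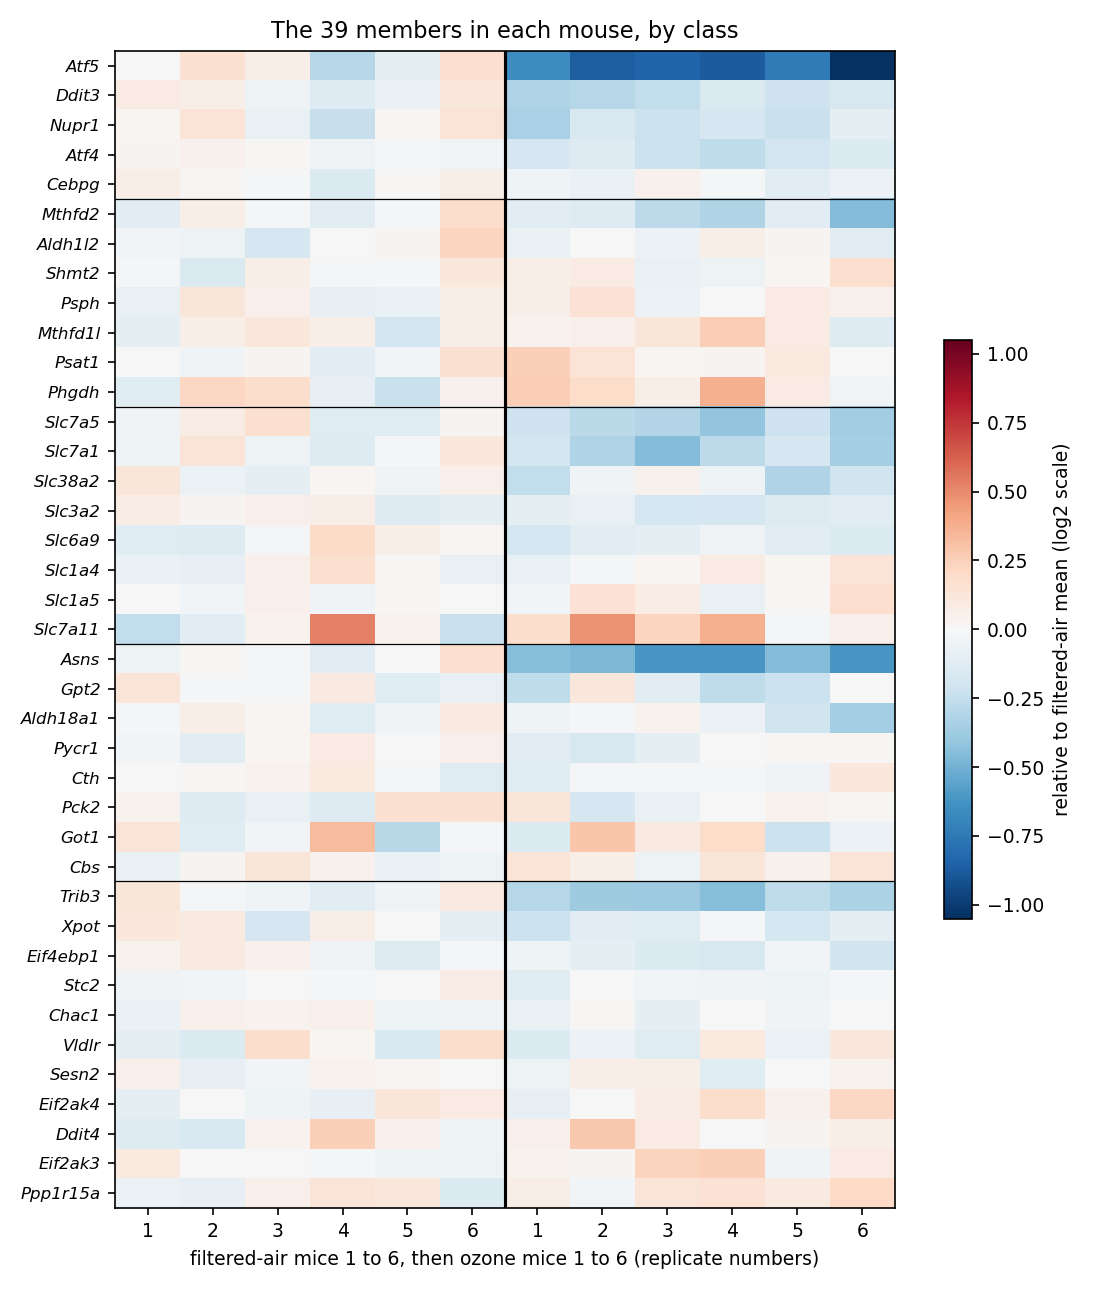
Each of the 39 members (rows, grouped by class and ordered by difference) in each of the 12 mice (columns), coloured by variance-stabilized expression relative to the filtered-air mean on a log2 scale. The rows of Atf5, Asns, Trib3, Slc7a1 and Slc7a5 are blue in all 6 ozone mice, and filtered-air mouse 4 is the lowest of its group in each of these rows and the highest of its group in Slc7a11.

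Of the 10 members with the motif, 2 were called lower, Asns and Trib3, and 8 were not called. Among the 5 called members with a window, Atf5 left aside, 3 held no such letters in it: Atf4, Ddit3 and Slc7a1. Slc7a5 has no window in the table. Called and uncalled members thus both occur with and without the element near the start, and sequence farther away was not searched.

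The 12 mice were then compared over the 6 called genes and Atf5. In each of these 7 the groups did not overlap, so means over them had to separate ozone from filtered-air mice. Filtered-air mouse 4 was the lowest of its group in all 7, with a mean over the 7 of -0.14; the other filtered-air mice had means from -0.053 to 0.096, and the ozone mice from -0.44 to -0.32. The same mouse had the lowest RNA integrity number of the series, 8.9, and in 11 of 11 marker lists of other cell types its mean exceeded the filtered-air median, being the highest in 7. Its means over the proliferation genes (-0.21) and over the alveolar macrophage markers (-0.080) were the lowest of the filtered-air mice. What these values have to do with its low members was not tested. Since filtered-air mouse 4 was the lowest of its group in all 7, leaving it out favoured larger falls, and only the sizes are of interest. Without filtered-air mouse 4 the differences were -0.90 in Atf5, -0.56 in Asns, -0.37 in Trib3 and -0.33 in Slc7a5. They were -0.32 in Slc7a1, -0.27 in Ddit3 and -0.20 in Atf4. In that fit 8 of the 38 members were called, the 6 with Nupr1 lower and Slc7a11 higher, beside 745 of all genes. Among the ozone mice, mouse 4 was the lowest in 4 of the 7 genes, and the others in at most 1. Its means were also above the ozone median in 11 of 11 lists of other cell types, and those of filtered-air mouse 5 were above the filtered-air median in 10 of 11. Ozone mouse 3 had the lowest mean over the 7 genes, -0.44, and was above the ozone median in 2 of 11 lists. Ozone mice 1 and 2 were also above it in 2 of 11, ozone mouse 5 in 6 and ozone mouse 6 in 9. The mean RNA integrity number of the ozone mice was 9.48 ± 0.172 (SD, n = 6). That of the filtered-air mice was 9.42 ± 0.293 (SD, n = 6) (exact permutation test of the difference, two-sided, p = 0.747).

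Markers of other cells that a sort of lung macrophages could hold were counted in the same fit. Of 73 listed genes 63 were tested, and 1 was called, Tppp3, lower by 0.81 after ozone; at an unadjusted p under 0.05 stood 14. The mean over the 63 genes ran from -0.17 to 0.24 in filtered air and from -0.13 to 0.092 after ozone, so the groups overlapped. Single lists went in different directions. All 6 B cell markers had differences below 0, with a median of -0.23 and 3 at an unadjusted p under 0.05. Of 8 markers of monocytes and interstitial macrophages 6 had differences above 0, with a median of 0.16 and the lowest difference, -0.50, in Apoe, and the 3 erythroid markers tested had differences from 0.089 to 0.31. None of the genes in these 3 lists was called by limma, and their part in the members' differences was not tested. Genes of proliferation were higher after ozone. Of 15, 14 were called higher, with a median of 0.46, and their mean ran from -0.21 to 0.19 in filtered air and from 0.33 to 0.55 after ozone. The part of dividing cells in the members' differences was not tested.

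Since the groups of the called members did not overlap, their differences had to be below 0 in each sort batch, and only the sizes are of interest. In the first batch the differences were -0.49 in Asns, -0.37 in Trib3, -0.31 in Slc7a5, -0.22 in Slc7a1, -0.21 in Ddit3 and -0.21 in Atf4, and in the other batch -0.58, -0.33, -0.29, -0.38, -0.26 and -0.18 in the same order. With 3 mice against 3, limma called Asns alone of the 38 members in the first batch and 0 in the other, where Asns had an adjusted p of 0.0799. An interaction of ozone and batch was called by limma in 0 of the 39 members and in 0% of all genes; at an unadjusted p under 0.05 it stood in 1 member, Aldh1l2, with differences of 0.091 and -0.14, and in 510 of all genes. Quantile normalization of the 12 columns ended 4 calls. Under it Atf4 differed by -0.16 (limma adjusted p = 0.0600), Slc7a1 by -0.26 (0.0794), Slc7a5 by -0.26 (0.0892) and Ddit3 by -0.20 (0.123). Asns (limma adjusted p = 0.00334) and Trib3 (limma adjusted p = 0.0251) were still called. The directions of the 6 were the same under that setting.

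Genes around the response were read from 7 further lists. None of the 20 cytosolic aminoacyl-tRNA synthetases, which charge tRNA and include many ATF4 targets, was called by limma; 7 had an unadjusted p under 0.05, 5 of them lower and 2 higher, and the differences ran from -0.14 in Yars to 0.14 in Vars. Nars, which charges asparagine, was the 1 synthetase whose groups did not overlap, with a difference of -0.075 (limma adjusted p = 0.257). None of the 16 genes of eIF2, its kinases, its exchange factor eIF2B and their sensors was called, with 2 at an unadjusted p under 0.05. Among 15 mitochondrial chaperones and proteases, the genes of the stress response to which ATF5 is linked, 0 were called, 0 had an unadjusted p under 0.05, and the differences ran from -0.095 to 0.077. None of 19 tested further amino acid transporters was called, with 5 at an unadjusted p under 0.05.

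Calls appeared in the 3 other lists. Of 22 further ATF, C/EBP and small bZIP factors, 1 was called lower and 1 called higher. Jdp2, a repressor that competes with other bZIP factors, ran from -0.20 through -0.026 to 0.28 in filtered air and from -0.66 through -0.53 to -0.40 after ozone, a difference of -0.53 (SE 0.073, limma adjusted p = 0.00160). Atf3, a stress-induced repressor that ATF4 can induce, ran from -0.18 through -0.051 to 0.23 and from 0.28 through 0.37 to 0.45, a difference of 0.37 (SE 0.064, limma adjusted p = 0.00525). Atf3 was thus higher after ozone where Atf4, Ddit3 and Trib3 were lower, and its groups were separate as theirs were.

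Of 20 further folate and methionine cycle enzymes 2 were called, both higher. Among them Tyms, thymidylate synthase, which serves DNA synthesis, was higher by 0.42 (SE 0.052, limma adjusted p = 0.00071), and the proliferation genes given above were higher in the same mice. Of 24 tested further targets reported for ATF4 or CHOP, 1 was called, Jmjd6, a nuclear hydroxylase, with a difference of -0.18 (SE 0.037, limma adjusted p = 0.0124). Gdf15, a secreted stress cytokine, differed by 0.26 with a 95% interval from -0.064 to 0.58, and Hspa5, the chaperone BiP, by 0.18 (limma adjusted p = 0.142). Over the 7 lists 5 of 136 tested genes were called, 2 lower and 3 higher, with a median of -0.0043, beside 4.25% called over all genes tested. At an unadjusted p under 0.05 in limma stood 33 of the 136, beside 16.7% of all genes tested.

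**Figure D4:**
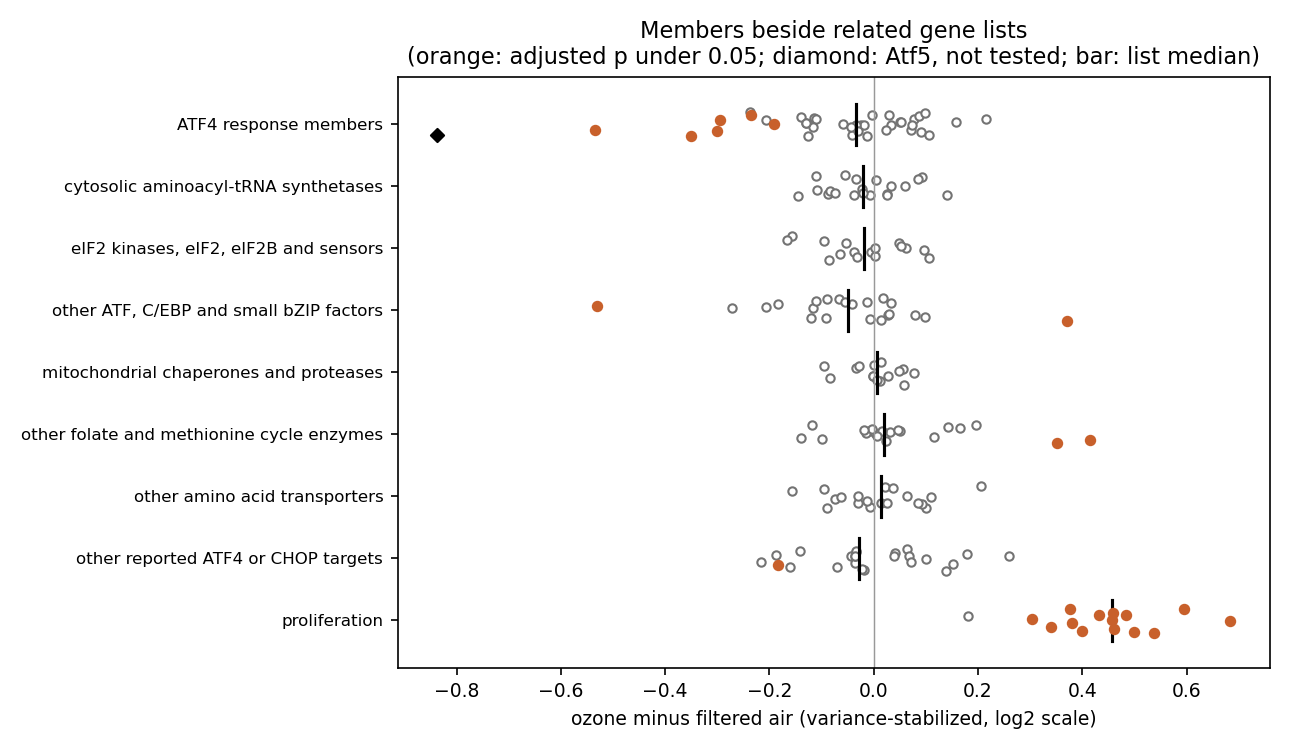
Ozone minus filtered air on the variance-stabilized log2 scale for the 39 members, 7 related lists and the proliferation list, with 1 point per gene, orange where the adjusted p was under 0.05, and a bar at the list median. The diamond is Atf5, shown without a test. The other members have 6 called genes, all below 0, the synthetases, eIF2 genes, mitochondrial chaperones and further transporters have 0, and 14 of 15 proliferation genes are called above 0.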

How the data were processed

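Poly(A) RNA of flow-sorted alveolar macrophages was sequenced as paired 50-base reads from a stranded library kit, per the labels' protocols. The authors deposited 1 table of variance-stabilized log2 values, batch corrected per its file name; its values show a filtered-air mean of 0 in every gene, so neither abundance nor read depth was kept, and precision rests on the number of mice. The submitters' processing notes name cutadapt, STAR 2.7.7a, Salmon 1.5.2, DESeq2 1.26.0, R 3.6.0 and limma 3.42.2, without saying which step each served, and build mm10.

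Of 55291 genes 25444 were not constant, and 21.6% of their values equalled a minimum that at least 2 mice of a batch shared (within 1e-06). The 19633 genes with at least 6 mice above that minimum were fitted with limma 3.58.1 in R 4.3.3, with exposure and flow sort batch as terms, and p-values were adjusted over all of them by the Benjamini-Hochberg method (called under 0.05). The fit was tested on simulated data. Exposure-by-batch interaction was a separate fit.

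The members and all lists were chosen with earlier results of these data known. Members that were called or whose groups did not overlap are described in full, with Atf4, Atf5, Asns and Ddit3 in any case. Related genes are named where called, except 1 that is not reported here; Nupr1, Slc7a11, Krt79, Chil3, Car4, Apoe, Tppp3, Nars, Yars, Vars, Gdf15 and Hspa5 were picked out after their values were seen. Gene positions are from GENCODE M21 and promoter windows from RefSeq. Alternatives were other filters, scalings, variance models and covariates, each batch alone and each mouse left out.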

Additional observations from a re-analysis of the deposited data

Results flagged for a closer look

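In 5 of 78 combinations of gene and group, 1 mouse stood apart from the other 5, by a gap past Dixon's 95% critical value for 6 samples. Chance alone gives about 1 in 20, or 3.9 of 78. Filtered-air mouse 4 stood low in Cebpg at -0.15, with the others from -0.013 to 0.067, and high in Slc7a11 at 0.53, with the others from -0.26 to 0.036. Filtered-air mouse 6 stood high in Stc2 at 0.080, with the others from -0.041 to 0.0015. Filtered-air mouse 1 stood high in Eif2ak3 at 0.11, with the others from -0.051 to 0.0040. Ozone mouse 2 stood high in Ddit4 at 0.29, with the others from -0.0033 to 0.090.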

How the results depend on the processing

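Of 144 results of the 6 called members other than Atf5 under alternatives, 129 kept direction and call, 15 lost the call and 0 reversed; no mouse left out ended a call of the 6. Calls over all genes numbered 834, and 171 after quantile normalization, 90 in batch 1 alone, 0 in batch 2 alone, and 538 to 751 with a mouse left out, 538 without filtered-air mouse 1. Calls among the 38 members other than Atf5 were 6, and 2 after quantile normalization, 1 in batch 1 alone, 0 in batch 2 alone, 6 with a variance trend, 6 to 8 with a mouse left out (8 without filtered-air mouse 4), and 8 with the RNA integrity covariate, where Nupr1 and Mthfd2 were added. Over all 39 members, the same counts were 7, 3, 2, 0, 6, 7 to 9, and 9. They differ from those of the 38 only by Atf5, which was chosen for its difference and adds nothing independent. Its presence in a count, or absence from it, is therefore not a test of Atf5, and nothing is drawn from it. The variance trend left the difference of Atf5 at -0.84 and raised its SE from 0.081 to 0.27. The 6 of that setting do not include Atf5. Members called higher were 0 to 1 with a mouse left out, the 1 being Slc7a11 without filtered-air mouse 4. Calls over all genes that were lower numbered 361, and 65 after quantile normalization, 19 in batch 1 alone, 0 in batch 2 alone, 221 with a variance trend, 552 with the replicate block and 212 without filtered-air mouse 1. The causes were not tested.

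Same-numbered mice are different animals and no label ties a number to a shared day or cage, so the numbers were not used as pairs. Their deviations correlated from -0.0026 to 0.28, with 4 of 6 pairs over 0.1, and 6 of 12 mice correlated best with their own number, a hint from the data of something shared. With a replicate block 1219 genes and 7 of the 38 members were called (Nupr1 added); with the batch term kept as well, an alternative chosen after seeing the data, 853 and 6.

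Uncalled members near 0 reversed. In batch 2 alone the differences were 0.0027 in Cebpg, -0.017 in Psph, -0.051 in Mthfd1l, 0.061 in Pck2, -0.10 in Got1 and 0.029 in Sesn2. In batch 1 alone they were 0.091 in Aldh1l2, 0.017 in Chac1 and 0.016 in Vldlr. Sesn2 was at 0.00023 after median centring and 0.0055 with the RNA integrity covariate. With a mouse left out, Shmt2 ran from -0.00040 to 0.059, Aldh1l2 from -0.064 to 0.026, Pck2 from -0.045 to 0.023, Got1 from -0.040 to 0.099, Cth from -0.049 to 0.0054, Sesn2 from -0.022 to 0.025 and Vldlr from -0.064 to 0.012.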
